A study of Mus musculus with 9 samples.

Results

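The genes described are the 4 Notch receptors of the mouse (Notch1, Notch2, Notch3 and Notch4) and 5 of their ligands, the Delta-like genes Dll1, Dll3 and Dll4 and the Jagged genes Jag1 and Jag2. They were chosen by gene symbol from the platform annotation, by a rule that uses no measured value. The set was, however, proposed with earlier results of these data known. All 9 of 9 were found among the 18193 genes of the array. They are covered by 18 of the 34945 probe sets with 1 gene symbol, and the brightest one on average stands for the gene. Of the 9 genes, 6 had their highest mean level in the GFP-CD133+ gate of the dermal papilla. Dll1 was 7.70-fold higher there than in the dermal pool, and 2.36-fold lower in the GFP+CD133+ gate than in the GFP-CD133+ gate. Notch4 averaged 5.44 in the GFP+CD133+ gate, 7.24 in the GFP-CD133+ gate and 5.01 in the pool (log2 level), the last at background on all 3 arrays. Jag1 had nearly the same level in both papilla gates, 2.74-fold and 2.61-fold above the pool. Jag2 had its lowest mean in the GFP+CD133+ gate, a fall called against the pool alone and on its brightest probe set alone. Dll3 lay at background on all 9 arrays.

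Notch receptors are membrane proteins that are bound by Delta-like or Jagged proteins on a neighbouring cell. Binding is followed by cleavage, first by an ADAM protease and then by gamma-secretase, and the freed intracellular domain joins Rbpj and a Mastermind protein in the nucleus, where genes of the Hes and Hey families are known targets. In skin the pathway is known for its part in epidermal differentiation and in the hair follicle; Notch4 and Dll4 are known from blood vessel endothelium and Notch3 from pericytes and vascular smooth muscle.

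Cells were sorted at postnatal day 2 from back skin, and each of 3 mice (numbered 2, 4 and 5) gave 1 array in each of 3 gates. Gate R3 held GFP+CD133+ cells, described in the labels as papilla cells of guard, awl and auchene hairs. Gate R2 held GFP-CD133+ cells, described as papilla cells of zigzag hairs, and gate R1 held GFP-CD133- cells, the dermal pool without papilla cells. The gene Prom1 encodes CD133, and in published work with such mice GFP reports Sox2. The labels name neither the strain nor the reporter allele. The dermal papilla is the mesenchymal cell cluster at the base of the hair follicle that signals to the epithelium. A gate is a sorted mixture, so fewer cells of a type and less RNA per cell cannot be told apart.

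Values are log2 expression values made by the authors with RMA, with array medians from 6.13 to 6.20. As a guide to background, 44 probe sets of olfactory receptors were used, whose 95th percentile was 5.14 to 5.46 by array. Prom1 averaged 10.32 ± 0.19 in R3, 11.85 ± 0.04 in R2 and 7.43 ± 0.36 in R1 (log2 level, SD, n = 3). Sox2 averaged 10.66 ± 0.12, 7.08 ± 0.61 and 4.19 ± 0.34 in R3, R2 and R1. Prom1 was thus higher in both CD133+ gates than in R1, and Sox2 was highest in the GFP+ gate. The match to the gates is partial. Prom1 exceeded the background guide on 3 of 3 arrays of the CD133- gate R1. Sox2 exceeded it on 3 of 3 arrays of the GFP- gate R2 and on 0 of 3 R1 arrays. Of 19 dermal papilla markers, 18 were called higher in R3 than in R1 and 12 in R2 than in R1. Of all genes, 7.9% and 6.89% were called higher in these comparisons. The list includes Prom1 and Sox2, so part of it is tied to the sort itself. The 3' minus 5' difference of the beta-actin control probe sets, a sign of RNA quality, was 0.119 to 0.195 in R3, 0.106 to 0.216 in R2 and 0.043 to 0.069 in R1. That of the Gapdh control overlapped across the gates, at 2.68 to 3.02 in R3, 2.57 to 2.85 in R2 and 2.63 to 2.97 in R1. The part of RNA quality in the comparisons with R1 was not tested. Differences were tested with limma across all genes and called at an adjusted p under 0.05. The number of arrays limits the precision.

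**Figure D1:**
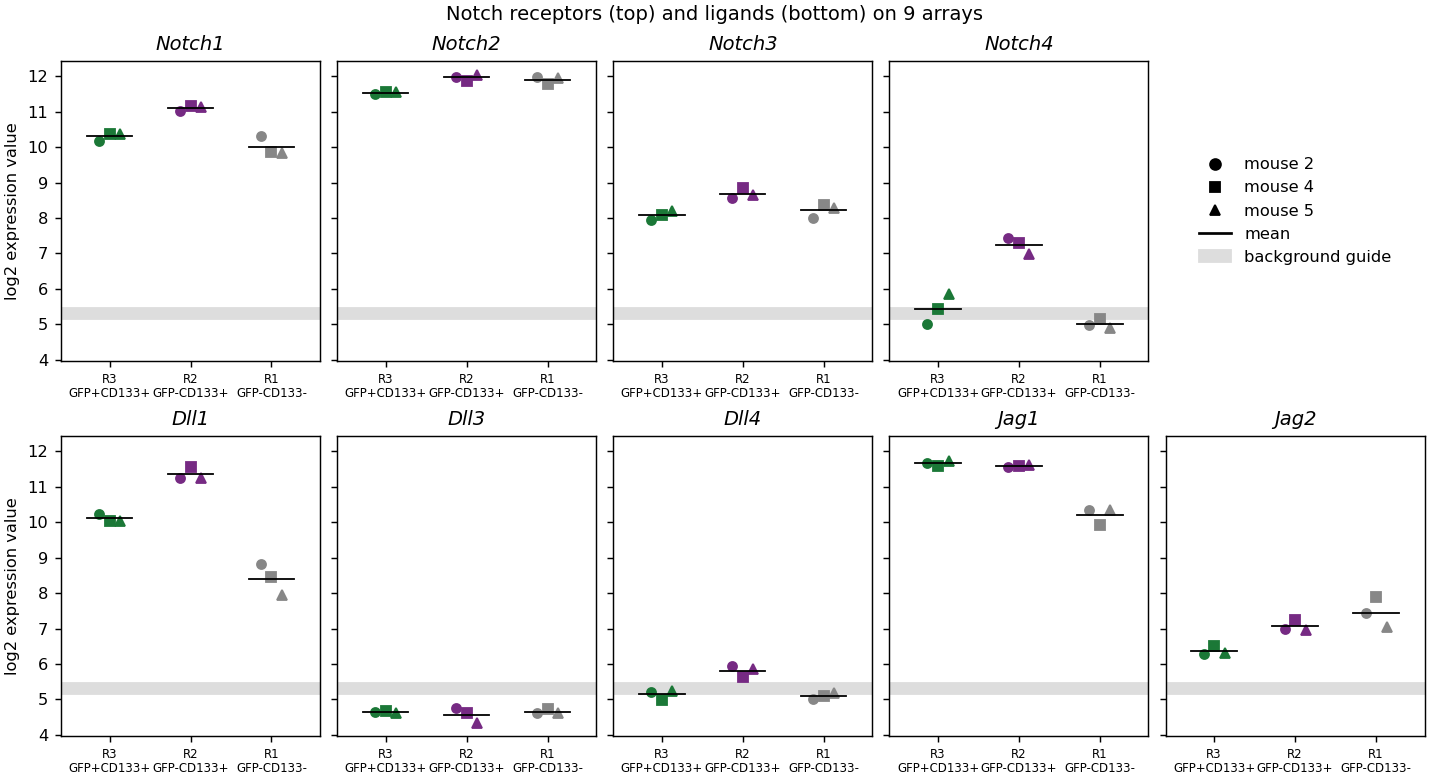
Log2 expression values (y axis) of the main probe set of the 4 Notch receptors (top row) and 5 ligands (bottom row) in gates R3, R2 and R1 (x axis). Each symbol is the array of 1 mouse, lines are means of 3 arrays, and the grey band from 5.14 to 5.46 is the background guide; Dll1 falls into 3 separate levels, Notch4 and Dll4 stand above the band on all R2 arrays, and Dll3 stays under it.

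Among the ligands, Dll1, a Delta-like ligand with a known part in somite and muscle precursor signalling, differed most between the gates. Its log2 level was 10.23, 10.05 and 10.05 in R3, 11.24, 11.56 and 11.25 in R2, and 8.81, 8.46 and 7.94 in R1 (mice 2, 4 and 5). All R2 arrays were above all R3 arrays, which in turn were above all R1 arrays. The log2 change was -1.24 ± 0.21 for R3 against R2 (standard error, n = 3 per gate, limma adjusted p = 0.0081), 2.94 ± 0.21 for R2 against R1 (adjusted p = 3.6e-05) and 1.70 ± 0.21 for R3 against R1 (adjusted p = 0.000477). Each difference had the same sign in all 3 mice, and the fall in R3 against R2 lay between 1.01 and 1.51 within single mice. Dll1 has 1 probe set.

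Jag1, a Jagged ligand, separated both papilla gates from the pool. Its log2 level was 11.68, 11.57 and 11.73 in R3, 11.55, 11.59 and 11.63 in R2, and 10.36, 9.92 and 10.35 in R1. The R3 and R2 arrays overlapped, and all of them were above the R1 arrays. Jag1 rose by 1.45 ± 0.14 in R3 against R1 (limma adjusted p = 0.000127) and by 1.38 ± 0.14 in R2 against R1 (adjusted p = 0.000244). For R3 against R2 the change was 0.07, with a 95% interval from -0.25 to 0.39 (adjusted p = 0.847).

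The promoters of Dll1, Notch4 and Jag1 are shown because Dll1 and Notch4 are the genes with the widest span between gates and Jag1 is the ligand called higher in both papilla gates with overlapping R3 and R2 arrays. Each window runs from 250 bases before to 50 bases after a transcription start in RefSeq (GRCm38.p6), and Dll1 has 2 such starts. Capitals mark matches on either strand to 4 motifs. These are TGGGAA (the core bound by Rbpj), ACAATG (bound by SOX factors), ACAAAG (likewise) and TGANTCA (a loose form of the AP-1 motif, with any base at N). The motifs were chosen after the sequences were read.
Dll1, first window, chr17:15375774-15376073, minus strand: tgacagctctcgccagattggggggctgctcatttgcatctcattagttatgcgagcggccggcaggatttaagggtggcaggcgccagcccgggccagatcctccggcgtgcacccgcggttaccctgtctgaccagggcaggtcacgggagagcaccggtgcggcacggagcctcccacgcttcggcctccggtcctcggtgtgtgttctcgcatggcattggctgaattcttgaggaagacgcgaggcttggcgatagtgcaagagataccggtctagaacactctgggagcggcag
Dll1, second window, chr17:15376883-15377182, minus strand: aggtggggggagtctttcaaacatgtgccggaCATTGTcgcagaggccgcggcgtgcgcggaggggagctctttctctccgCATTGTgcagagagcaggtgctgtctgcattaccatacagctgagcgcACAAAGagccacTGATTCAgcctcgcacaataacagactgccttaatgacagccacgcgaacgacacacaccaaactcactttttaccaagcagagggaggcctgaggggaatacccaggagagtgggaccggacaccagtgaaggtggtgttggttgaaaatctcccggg
Notch4, chr17:34564045-34564344, plus strand: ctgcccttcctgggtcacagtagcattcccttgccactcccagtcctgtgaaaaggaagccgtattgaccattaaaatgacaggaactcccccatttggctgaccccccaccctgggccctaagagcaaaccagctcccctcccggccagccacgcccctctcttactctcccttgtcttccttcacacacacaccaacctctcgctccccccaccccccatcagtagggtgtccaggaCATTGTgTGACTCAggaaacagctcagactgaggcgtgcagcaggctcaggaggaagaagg
Jag1, chr2:137116471-137116770, minus strand: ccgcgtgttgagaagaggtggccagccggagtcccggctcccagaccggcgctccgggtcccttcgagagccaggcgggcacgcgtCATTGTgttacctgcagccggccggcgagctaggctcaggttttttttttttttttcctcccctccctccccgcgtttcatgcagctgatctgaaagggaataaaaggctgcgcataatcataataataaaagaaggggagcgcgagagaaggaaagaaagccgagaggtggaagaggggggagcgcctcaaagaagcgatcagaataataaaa

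TGGGAA was found in 0 of the 10 windows of the 9 genes, against 25.6% of all 32851 windows in the table. ACAATG was found in 3 of the 10 windows, against 12.6% of all windows, and ACAAAG in 1, against 18.7%. TGANTCA was found in 2, against 7.8%. Counted from the start site, the second Dll1 window holds CATTGT, the other strand of the first SOX motif, at positions -218 and -169. It also holds the second SOX motif at -121 and TGATTCA, a match to the loose motif with T at the N, at -109. The Notch4 window holds CATTGT at -11 and TGACTCA, with C at the N, at -4, and the Jag1 window CATTGT at -164. No match overlaps another. Such matches describe the letters and not binding.

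Dll4, a ligand known from arterial and sprouting endothelium, was near the background guide. It read 5.21, 4.98 and 5.24 in R3, 5.94, 5.63 and 5.86 in R2, and 5.00, 5.10 and 5.18 in R1 (log2 level). It exceeded the guide of its own array on 3 of 3 R2 arrays, on 1 of 3 R3 arrays and on 0 of 3 R1 arrays. Dll4 fell by 0.67 ± 0.13 in R3 against R2 (limma adjusted p = 0.0199) and rose by 0.72 ± 0.13 in R2 against R1 (adjusted p = 0.0069). The call for R3 against R2 was lost without the R3 array of mouse 4 (adjusted p = 0.0805), the R2 array of mouse 2 (0.0784) or the R2 array of mouse 5 (0.0625). For R3 against R1 the change was 0.05, with a 95% interval from -0.25 to 0.35.

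Jag2 had its highest mean level in R1 and its lowest in R3. Its main probe set read 6.28, 6.51 and 6.32 in R3, 6.98, 7.25 and 6.97 in R2, and 7.44, 7.88 and 7.03 in R1 (log2 level). The R3 arrays were under all others, and the R2 and R1 arrays overlapped. Jag2 fell by 1.08 ± 0.20 in R3 against R1 (2.11-fold, limma adjusted p = 0.0052). The change of -0.70 ± 0.20 for R3 against R2 missed the threshold (adjusted p = 0.0915), although it lay between -0.74 and -0.65 in each of the 3 mice and passed with the mouse as a replicate block (adjusted p = 0.0484). For R2 against R1 the change was -0.38, with a 95% interval from -0.84 to 0.07.

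Dll3, a Delta-like protein known in the mouse to block Notch signalling within the cell that makes it, showed no level above background. Its log2 values were 4.62 to 4.68 in R3, 4.35 to 4.75 in R2 and 4.61 to 4.72 in R1, under the guide on all 9 arrays. None of the 3 changes exceeded 0.08 in size, and the widest 95% bound was 0.37.

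Among the receptors, Notch4 had the widest span. It read 5.01, 5.43 and 5.86 in R3, 7.44, 7.30 and 6.99 in R2, and 4.98, 5.16 and 4.90 in R1 (log2 level). All R2 arrays were above all others, and the R3 and R1 arrays overlapped. Notch4 fell by 1.81 ± 0.21 in R3 against R2 (limma adjusted p = 0.00112) and rose by 2.23 ± 0.21 in R2 against R1 (adjusted p = 0.000167). R3 exceeded the background guide on 2 of 3 arrays and R1 on 0 of 3, so both changes rest on dim signals on one side. The fall in R3 against R2 was uneven across mice, 2.43 in mouse 2, 1.86 in mouse 4 and 1.12 in mouse 5. For R3 against R1 the change was 0.43, with a 95% interval from -0.06 to 0.91 (adjusted p = 0.213).

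Notch1, the receptor known for epidermal differentiation, was also highest in R2, at a much brighter signal. It read 10.19, 10.37 and 10.37 in R3, 11.01, 11.17 and 11.12 in R2, and 10.30, 9.85 and 9.84 in R1 (log2 level). The R2 arrays were above all others, and the R3 and R1 arrays overlapped. Notch1 fell by 0.79 ± 0.15 in R3 against R2 (1.73-fold, limma adjusted p = 0.0156), with falls of 0.82, 0.80 and 0.75 in mice 2, 4 and 5. It rose by 1.10 ± 0.15 in R2 against R1 (2.14-fold, adjusted p = 0.00125). The fall was not called without the R3 array of mouse 2 (adjusted p = 0.0618) or the R2 array of mouse 4 (adjusted p = 0.0651). The change for R3 against R1 was 0.31, with a 95% interval from -0.02 to 0.65, and passed only without the R1 array of mouse 2 (adjusted p = 0.0496, among 18 alternatives).

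Notch3, the receptor of mural cells, moved less. It read 7.94, 8.09 and 8.20 in R3, 8.56, 8.85 and 8.65 in R2, and 8.01, 8.37 and 8.28 in R1 (log2 level). Each R2 array was above each R3 and each R1 array. The fall of 0.61 ± 0.14 in R3 against R2 passed narrowly (1.53-fold, limma adjusted p = 0.0412) and was called under 6 of 18 alternatives. It was lost without any single array other than the R1 array of mouse 2 (adjusted p from 0.0517 to 0.149), with each array centred on its median (0.062) and after quantile normalization again (0.0862). The change of 0.47 ± 0.14 for R2 against R1 missed the threshold (adjusted p = 0.0639) and passed with the mouse as a fixed replicate block (adjusted p = 0.0411). For R3 against R1 it was -0.15, with a 95% interval from -0.47 to 0.18.

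Notch2 had bright signals in every gate and was called in none of the 3 comparisons. It read 11.49, 11.56 and 11.55 in R3, 11.98, 11.88 and 12.04 in R2, and 11.99, 11.77 and 11.95 in R1 (log2 level). The R3 arrays were under all R2 and R1 arrays, which overlapped. The changes were -0.43 ± 0.12 for R3 against R2 (limma adjusted p = 0.0671) and -0.37 ± 0.12 for R3 against R1 (adjusted p = 0.0527). The R3 against R1 change passed with the mouse as a random replicate block (adjusted p = 0.0448). For R2 against R1 it was 0.06, with a 95% interval from -0.20 to 0.32.

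**Figure D2:**
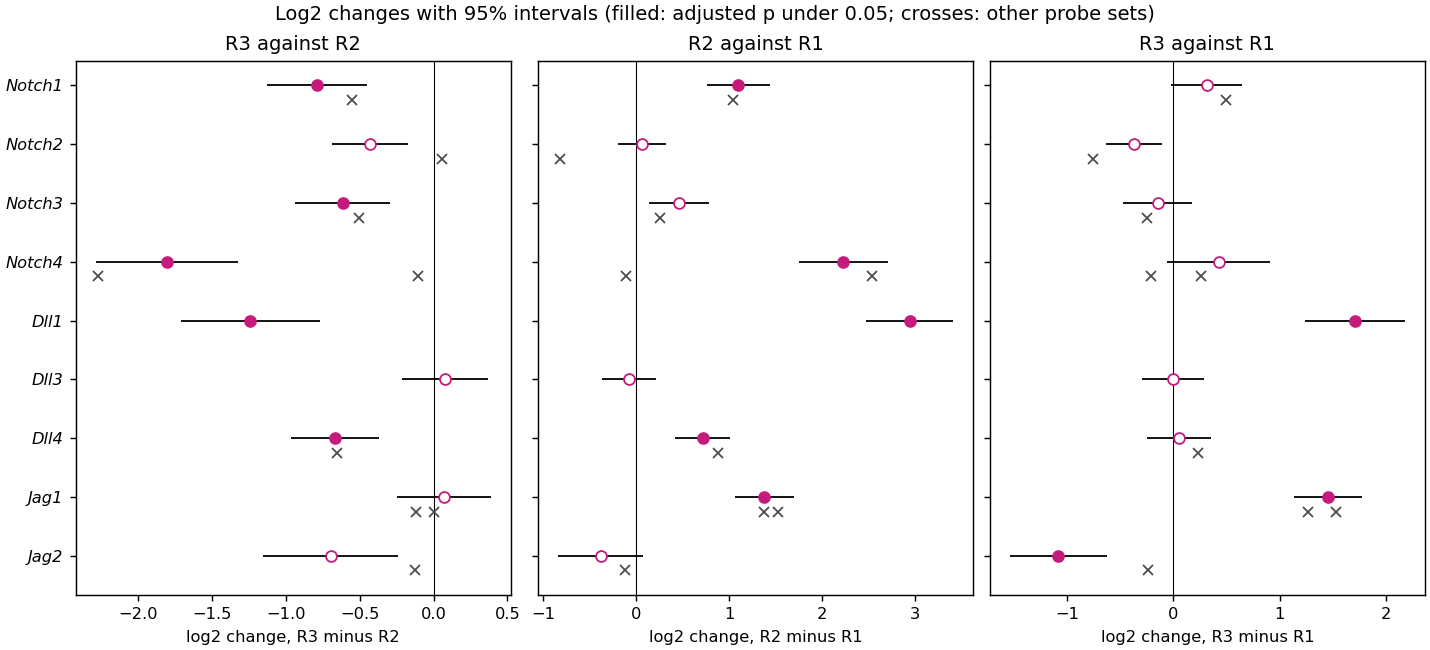
Log2 changes (x axis) of each receptor and ligand (y axis) in the 3 comparisons, with 95% intervals from limma. Filled circles passed an adjusted p under 0.05 and crosses show the gene's other probe sets; 5 genes are filled on the lower side for R3 against R2, 5 on the higher side for R2 against R1, and 2 higher and 1 lower for R3 against R1.

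By comparison, 5 of the 9 genes were called lower in R3 than in R2 (Notch1, Notch3, Notch4, Dll1 and Dll4) and 0 higher, against 3.06% of all 18193 genes called lower, 1.97% called higher and 5.03% called in all. The median change of the 9 genes was -0.67, beside -0.01 over all genes, and their arrays did not overlap for 7, against 22.7% of all genes. The count was 3 without the R3 array of mouse 2 or 4, or without the R2 array of mouse 2, 4 or 5. In R2 against R1, 5 genes were called higher (Dll1, Jag1, Notch4, Notch1 and Dll4) and 0 lower, against 6.89% of all genes called higher, 6.16% called lower and 13.1% called in all. Their median was 0.72, beside -0.02 over all genes, their arrays did not overlap for 6, against 30.8% of all genes, and the count was 5 without each of the 9 arrays in turn. In R3 against R1, Jag1 and Dll1 were higher and Jag2 lower, against 7.9% of all genes called higher, 10.8% lower and 18.7% in all, with a median of 0.05 beside -0.01. Arrays did not overlap for 4, against 34.4% of all genes. The 3 comparisons share arrays, so their counts are not independent of each other. The 9 genes were proposed with earlier results of these data known, so the counts beside the shares of all genes are descriptive. The same holds for the marker and pathway lists below.

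The other probe sets bear on how far each gene can be read. All 3 Jag1 probe sets were called higher in R3 than in R1 and in R2 than in R1 when each probe set was tested singly (10.7% of 34945 probe sets were called for R2 against R1, 16.1% for R3 against R1 and 3.82% for R3 against R2). A second Notch4 probe set averaged 4.85 in R3, 7.12 in R2 and 4.58 in R1, above the background guide on 3 of 3 R2 arrays and on 0 of 3 in each of the other gates, and was called in R3 against R2 and in R2 against R1. Another averaged 2.09 in R3, 2.20 in R2 and 2.30 in R1, under the guide on every array, with changes of -0.10 and -0.11. With the mean of its 3 probe sets, which takes in these dim values, the log2 changes of Notch4 were -1.39 for R3 against R2 and 1.55 for R2 against R1. The second Notch1 probe set rose by 1.04 in R2 against R1 (limma adjusted p = 0.0067), and its change of -0.55 for R3 against R2 was not called (adjusted p = 0.161). The second Dll4 probe set had changes of -0.66 and 0.88 in these comparisons but stayed under the guide on all arrays. The second Notch3 probe set was not called for R3 against R2 (-0.51, limma adjusted p = 0.162) or for R2 against R1 (0.26, adjusted p = 0.398). Tested singly, the main Notch3 probe set was not called for R3 against R2 either (adjusted p = 0.0554). For Notch2 and Jag2 the probe sets differed. The dimmer Notch2 probe set averaged 7.30 ± 0.17 in R3, 7.24 ± 0.33 in R2 and 8.06 ± 0.42 in R1, a change of -0.81 for R2 against R1 where the main one gave 0.06. The second Jag2 probe set averaged 6.69 ± 0.14 in R3, 6.82 ± 0.09 in R2 and 6.94 ± 0.20 in R1, so the fall of Jag2 in R3 rests on 1 of its 2 probe sets.

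Markers of other cell types also moved between the gates. Of all genes, 5.03% were called in R3 against R2, 13.1% in R2 against R1 and 18.7% in R3 against R1. Of 16 endothelial markers, 15 were called lower in R3 than in R2 and 13 higher in R2 than in R1. Their summed linear signal was 2104 to 2367 in R3, 8151 to 9756 in R2 and 3044 to 3362 in R1. The endothelial adhesion genes Pecam1 and Cdh5 averaged 6.67 and 5.83 in R3, 9.52 and 8.77 in R2, and 7.74 and 7.39 in R1 (log2 level), and 10 to 13 of the 16 markers exceeded the background guide on the R3 arrays. Notch1, Notch2, Notch3, Notch4, Dll1 and Dll4 share with this list a highest mean level in R2. Notch2 and Notch3 had their lowest mean in R3, as the summed signal did. Notch4, Dll4, Notch1 and Dll1 had theirs in R1. Between the other gates the endothelial list was mixed, with 2 of 16 markers higher and 8 lower in R3 than in R1 and 6 not called. Flt1 (3.44-fold, limma adjusted p = 0.00042) and Kdr (1.32-fold, adjusted p = 0.0366), both receptors for vascular growth factors, were higher in R3, as Dll1 was. Pecam1 (2.09-fold, adjusted p = 0.0209) and Cdh5 (2.96-fold, adjusted p = 0.0084) were lower in R3, and Notch4 was not called. The call of Pecam1 for R3 against R1 was lost without the R3 array of mouse 4 (adjusted p = 0.0604) or any single R1 array (0.0524 to 0.0606). The part of endothelial RNA in the levels of Notch1, Notch2, Notch3, Notch4, Dll1 and Dll4 was not tested.

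The arterial list, with Efnb2 and Gja4 first, had 4 of 7 genes lower in R3 than in R2, and 3 higher and 1 lower in R2 than in R1. Its summed linear signal was 6567 to 6794 in R3, 10540 to 11580 in R2 and 6718 to 7225 in R1. The brightest gene of that sum in R2 was Cxcr4 (12.61, log2 level). Efnb2 averaged 10.90 in R3, 11.35 in R2 and 11.65 in R1, and Gja4 averaged 5.27, 6.03 and 5.78. Neither was called in R2 against R1. The list was split, with the highest mean in R1 for Efnb2, Nrp1 and Gja5, and in R2 for Gja4, Bmx, Cxcr4 and Unc5b. Mural cells are those for which Notch3 is known. Of 11 pericyte and smooth muscle markers, 1 was lower in R3 than in R2, 3 were higher and 5 lower in R2 than in R1, and 2 were higher and 6 lower in R3 than in R1. The summed signal was 7393 to 8622 in R3, 8249 to 9070 in R2 and 8841 to 9422 in R1. Rgs5, a pericyte gene, averaged 8.89 in R3, 8.97 in R2 and 11.32 in R1 (log2 level), while the pericyte receptor gene Pdgfrb averaged 10.08, 10.33 and 10.35 in R3, R2 and R1. Acta2, the smooth muscle actin gene that papilla cells also express, averaged 11.98 in R3, 12.03 in R2 and 10.75 in R1, and Tagln and Mcam were also higher in R2 than in R1.

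Schwann cell and keratinocyte markers set the other gates apart. Of 8 Schwann cell markers 8 were higher in R3 than in R2, with summed signals of 6614 to 7569 in R3, 575.2 to 701.2 in R2 and 1389 to 1947 in R1. All 14 keratinocyte markers were lower in R3 and in R2 than in R1, and their summed signal was 3433 to 6362 in R3, 4247 to 5126 in R2 and 29310 to 41760 in R1. Leukocyte, melanocyte and skeletal muscle lists were likewise brightest in R1, with 10 of 12, 4 of 6 and 2 of 6 genes lower in R2 than in R1. Of 11 fibroblast markers, 4 were lower in R3 than in R2, 6 in R2 than in R1 and 6 in R3 than in R1, with summed signals of 46070 to 48060 in R3, 48940 to 55150 in R2 and 75770 to 78370 in R1. Jag2 had its highest mean in R1. By mean log2 value, so had the keratinocyte, leukocyte, melanocyte, skeletal muscle, fibroblast, and pericyte and smooth muscle lists. The Schwann cell, papilla, endothelial and arterial lists had not. The change of Jag2 for R2 against R1 was not called (-0.38, limma adjusted p = 0.273). The part of these cell types in the level of Jag2 was not tested.

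**Figure D3:**
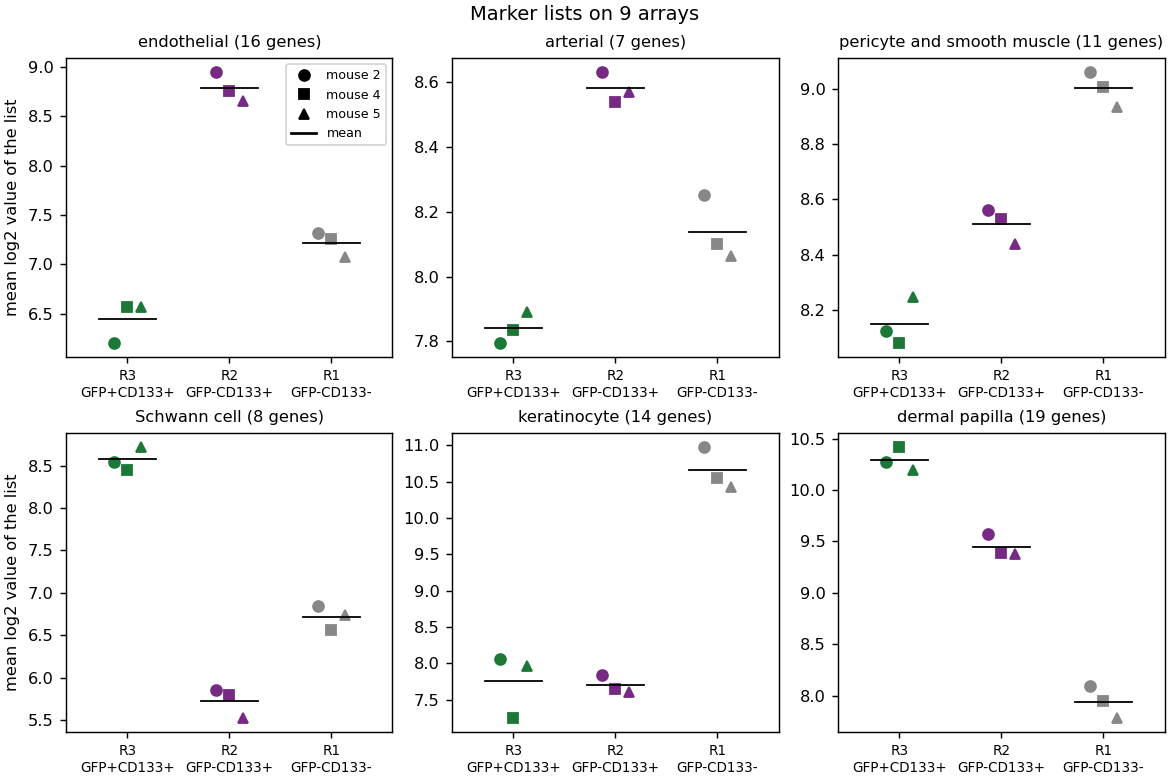
Mean log2 value of 6 marker lists (y axis) in gates R3, R2 and R1 (x axis). Each symbol is the array of 1 mouse and lines are means of 3 arrays; the endothelial and arterial lists are highest on the R2 arrays, the Schwann cell and papilla lists on the R3 arrays, and the keratinocyte and mural cell lists on the R1 arrays.

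Beyond receptors and canonical ligands, 44 of 48 listed genes of the pathway were measured. Of these, 2 were called higher and 7 lower in R3 than in R2, 11 higher and 3 lower in R2 than in R1, and 7 higher and 8 lower in R3 than in R1. These counts set 20.5%, 31.8% and 34.1% of the genes against 5.03%, 13.1% and 18.7% of all genes, with medians of -0.16, 0.10 and 0.00. For R3 against R2 the count was 3 without the R3 or the R2 array of mouse 2, 4 without the R2 array of mouse 4, and 5 without the R3 array of mouse 4.

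Of the 7 Hes and Hey genes listed as targets, 1 was called higher and 3 lower in R3 than in R2. In R2 against R1, 5 of the 7 were called higher, and in R3 against R1, 3 were called higher. Hes5, a repressor of neural differentiation, averaged 7.76 ± 0.48 in R3, 9.12 ± 0.25 in R2 and 6.26 ± 0.52 in R1 (log2 level, SD, n = 3), the same order of gates as Dll1. It was 7.26-fold higher in R2 than in R1 (limma adjusted p = 0.000266) and fell 2.58-fold in R3 against R2 (adjusted p = 0.0309), a call lost without the R3 array of mouse 2 or 4 or any single R2 array (adjusted p from 0.0729 to 0.103). Heyl, a target known from smooth muscle and pericytes, averaged 8.85 ± 0.43 in R3, 10.49 ± 0.23 in R2 and 9.10 ± 0.24 in R1, the order of Notch3, and fell 3.11-fold in R3 against R2 (adjusted p = 0.0029). Hes1 averaged 6.56 ± 0.42 in R3, 7.57 ± 0.05 in R2 and 6.85 ± 0.16 in R1. Its fall in R3 against R2 (adjusted p = 0.0177) was lost without the R3 array of mouse 2 (0.0518) or the R2 array of mouse 2 (0.0655) or 4 (0.0637), and its rise in R2 against R1 (adjusted p = 0.0409) was lost without 7 of the 9 arrays and with the mouse as a fixed replicate block (0.0665).

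Hey1 and Hey2 were called higher in both papilla gates than in R1, as Jag1, Dll1 and Hes5 were. For R3 against R2 the Hey1 change was -0.38 and not called (limma adjusted p = 0.353). All its R3 arrays were under all its R2 arrays, so Hey1 had the gate order of Dll1. Hey1 averaged 11.68 ± 0.15 in R3, 12.05 ± 0.16 in R2 and 9.58 to 10.34 in the 3 R1 arrays, and was 3.20-fold higher in R3 and 4.16-fold higher in R2 than in R1. Hey2 averaged 10.37 ± 0.07 in R3, 9.82 ± 0.07 in R2 and 7.12 ± 0.05 in R1. It was 9.47-fold higher in R3 than in R1 and was the single target to rise in R3 against R2 (1.46-fold, limma adjusted p = 0.019), a call lost without the R3 array of mouse 2 or 4 or the R2 array of mouse 2 or 5 (adjusted p from 0.0589 to 0.0735). Hes6 and Hes7 were called in 0 of the 3 comparisons, at means of 6.79 and 5.27 in R3, 7.25 and 6.09 in R2, and 7.27 and 5.42 in R1.

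Of 10 genes that limit or turn over Notch signals, 1 was called in R3 against R2, 3 in R2 against R1 and 3 in R3 against R1 (beside 5.03%, 13.1% and 18.7% of all genes). Numb, Numbl, Itch, Dtx2, Dtx3, Dtx4 and Nedd4 were called in none of them. Dtx1, a Deltex protein that binds the receptor's intracellular domain, averaged 6.30 ± 0.10 in R3, 6.68 ± 0.30 in R2 and 4.83 ± 0.20 in R1, and was called higher in R3 (limma adjusted p = 0.000374) and in R2 (adjusted p = 0.000137) than in R1, where it exceeded the background guide on 0 of 3 arrays. Fbxw7, the ubiquitin ligase subunit that marks the cleaved receptor for breakdown, was 2.22-fold higher in R3 and 1.96-fold higher in R2 than in R1. Nrarp, a feedback inhibitor, averaged 7.63 ± 0.23 in R3, 8.50 ± 0.16 in R2 and 9.17 ± 0.32 in R1, and was 2.91-fold lower in R3 than in R1 (limma adjusted p = 0.00047). Its calls for R3 against R2 (adjusted p = 0.0295) and R2 against R1 (adjusted p = 0.044) were lost under 6 and 11 of 18 alternatives, the second also with the mouse as a fixed replicate block (0.0521).

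Enzymes that modify, activate or cleave Notch proteins and ligands form 3 lists. Of 5 glycosyltransferase genes, Mfng (Manic fringe, an enzyme that extends O-fucose on Notch) fell in R3 against R2 (limma adjusted p = 0.0221), at means of 5.02 in R3, where 0 of 3 arrays exceeded the background guide, and 6.05 in R2. It lost the call without the R3 or the R2 array of mouse 2 or 4 (adjusted p from 0.0798 to 0.0842). Lfng and Pofut1 were 1.63-fold and 1.59-fold lower in R3 than in R1 (adjusted p = 0.0322 and 0.0495). These calls held under 11 and 7 of 18 alternatives, and that of Pofut1 was lost with the mouse as a fixed replicate block (0.0786). Of the genes for ligand endocytosis, Neurl1b was 3.23-fold lower in R3 and 3.67-fold lower in R2 than in R1, and Mib1, a ubiquitin ligase that acts on the ligands, was 1.54-fold higher in R2 than in R1 (adjusted p = 0.0178). The Mib1 call was lost without the R2 array of mouse 4 or 5 or the R1 array of mouse 2 or 4 (adjusted p from 0.0591 to 0.0613).

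Of 7 cleavage genes, the gamma-secretase subunit gene Aph1b was 1.67-fold higher in R3 and 1.66-fold higher in R2 than in R1, and Psenen was 1.59-fold lower in R3 than in R1. The protease gene Adam10 averaged 10.26 ± 0.30 in R3, 10.25 ± 0.18 in R2 and 10.13 ± 0.18 in R1. Of 6 genes of the nuclear complex and its cofactors, 0 were called in any comparison with limma. Of all genes, 5.03% were called in R3 against R2, 13.1% in R2 against R1 and 18.7% in R3 against R1. For 6 genes, a count of 0 is close to these shares. Rbpj averaged 8.32 ± 0.11 in R3, 8.38 ± 0.20 in R2 and 8.27 ± 0.17 in R1. With the mouse as a fixed replicate block, Maml1 passed for R3 against R1 (adjusted p = 0.0241) and for R2 against R1 (adjusted p = 0.0413), and not with a random one. Snw1 passed for R3 against R1 with either block (adjusted p = 0.0448 fixed and 0.0436 random).

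**Figure D4:**
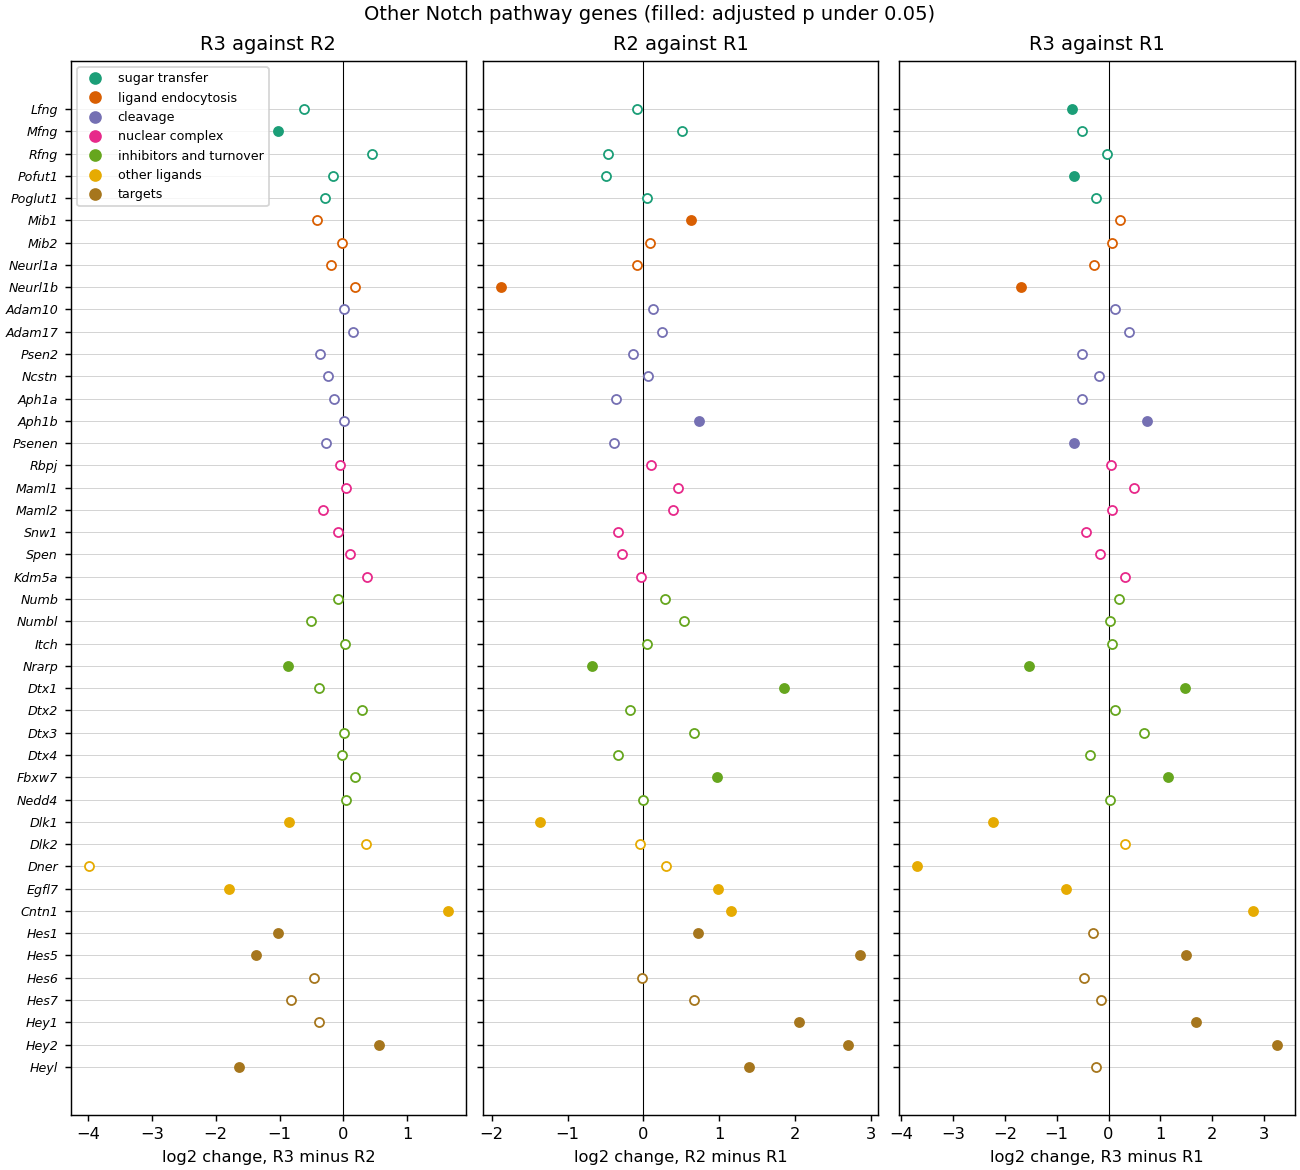
Log2 changes (x axis) of 44 other Notch pathway genes (y axis, coloured by role) in the 3 comparisons; filled circles passed an adjusted p under 0.05 in limma. Targets and non-canonical ligands hold the widest changes. The 6 genes of the nuclear complex are all unfilled, which is close to the share of all genes called.

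The genes most alike in pattern were found by Pearson correlation over the 9 arrays, among 2035 genes whose gate means span at least 1 on the log2 scale. The arrays share gates and mice, so these values only describe likeness. Dll1 was closest to Trim47 (r = 0.993), Ebf4 (0.992) and Rb1 (0.985). Notch4 was closest to Akr1c14 (0.984), Slco5a1 (0.975) and Mmrn2 (0.974), the last known from endothelium. Notch1 was closest to Tubb2a-ps2 (0.969), a tubulin pseudogene whose probe set may share signal with its parent gene, and to Fry and Unc5b (0.964 each). Jag1 was closest to Kcp (0.996), Daam2 (0.993) and Ypel2 (0.990). Jag2 was closest to Hr (0.979), the hairless gene of the hair follicle, Mical2 (0.978) and Adgrg1 (0.968). Notch2, Notch3, Dll3 and Dll4 spanned under 1 and were not compared in this way.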

How the data were processed

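RNA of each sorted gate was amplified (WT-Ovation Pico) before 1-colour hybridisation, per the labels' protocols. The authors deposited log2 values for every probe set, and RMA, named in the submitters' processing notes, corrects background, normalizes by quantiles and summarises probes. No source used here gives its version or says if all 9 arrays were normalized as a set. A change common to most genes can be lost in the quantile step, and amplification of little RNA can compress folds.

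Of 45101 probe sets, 34958 had 1 gene symbol in the platform annotation, 932 several and 9211 none. The 64 control probe sets and those with several symbols were left out of tests. Of those with 1 symbol, 34754 were found in RefSeq (GRCm38.p6, used for names) and 0 symbols changed. Each of 18193 genes was represented by its brightest probe set. Gates and mouse numbers came from the labels. The 3 gates were compared with limma 3.58.1 in R 4.3.3 (1 coefficient per gate, 9 arrays, no block, Benjamini-Hochberg over all genes, total degrees of freedom 9.49), and ± after a change is its moderated standard error. The test was also run on simulated data with independent normal noise and no mouse effect, read for R3 against R2 alone. Such data cannot show how mouse effects bear on the calls. The rule for the 9 genes uses their symbols alone, but they and the lists were proposed with earlier results of these data known, and the motifs with the promoter sequences known. All 9 receptors and ligands and the targets were named, with up to 4 called genes of each pathway list by lowest p. The first markers of each list and the 3 genes most alike were also named. Adam10, Rbpj, Maml1, Snw1 and further arterial markers were named after their values were seen. Listed genes without a probe set that names them alone were not analysed here. The mouse number pairs the arrays, since equal numbers mean 1 mouse; their deviations from gate means correlated at -0.074 to 0.193 across gates. As alternatives, each array was left out, the mouse was a replicate block (fixed, or random), and the others were 2 gates alone, median centring, quantile normalization again, the mean of or each probe set, genes above the median gene, and a trend and robust variance. Tables and plots used pandas 2.3.3 and matplotlib 3.10.9.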

Additional observations from a re-analysis of the deposited data

How the results depend on the processing

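Over all alternatives, 439 of 477 changes of the 9 genes kept their direction and their side of the threshold, 17 lost a call, 13 gained one and 8 changed sign, all 8 at changes never called. The calls of Dll1 in its 3 comparisons, of Notch4 and Dll4 for R2 against R1, of Notch4 for R3 against R2, of Notch1 and Jag1 for R2 against R1, and of Jag1 and Jag2 for R3 against R1 held under every alternative that could be run. Notch4, Dll3 and Dll4 could not be tested among genes above the median gene. The alternative with each probe set singly was read for the main probe set of each gene alone. Of the other probe sets, the second of Jag2 was not called for R3 against R1 (-0.24, limma adjusted p = 0.311). The dimmest Notch4 probe set was not called in any comparison. With 1 array left out, the count of all called genes was 582 to 841 for R3 against R2 (main 915) and 1554 to 2418 for R2 against R1 (2375). It was lowest in both without the R2 array of mouse 4, and for R3 against R2 it was 592 without the R3 array of mouse 4 and 596 without the R2 array of mouse 2. That of receptors and ligands for R3 against R2 was 3 to 5, and that of other pathway genes 3 to 10. Sign changes were those of Dll3 (-0.0349 to 0.17 for R3 against R2, -0.17 to 0.0338 for R2 against R1, -0.0203 to 0.0328 for R3 against R1 with 1 array left out, and 0.0185 for R3 against R1 with each array centred on its median), of Notch2 for R2 against R1 (-0.0026 to 0.11 with 1 array left out, and -0.38 for the mean of its probe sets) and of Jag1 for R3 against R2 (-0.0143 for the mean of its probe sets). The Notch2 probe sets differ in direction; the cause of the other sign changes was not tested. With the mouse as a fixed replicate block, 6 receptors and ligands were called for R3 against R2, 6 for R2 against R1 and 3 for R3 against R1, the additions being Jag2 and Notch3; with a random block the counts were 5, 5 and 4, the addition being Notch2. Signal near background limits Dll3, and Dll4 and Notch4 outside R2, as well as Dtx1 in R1 and Mfng in R3.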

Other observations

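Of 5 genes for proteins outside the canonical ligand family that are listed as binding Notch, 3 were called in R3 against R2, 3 in R2 against R1 and 4 in R3 against R1 (60.0%, 60.0% and 80.0%, beside 5.03%, 13.1% and 18.7% of all genes). Dlk2 was called in none of them and averaged 6.92 in R3, 6.56 in R2 and 6.61 in R1. Cntn1, a contactin of neural cells, averaged 8.02 ± 0.31 in R3, 6.38 ± 0.31 in R2 and 5.23 ± 0.37 in R1 (log2 level, SD, n = 3), and rose 3.12-fold in R3 against R2 (limma adjusted p = 0.0038). Egfl7, a secreted protein of endothelium, averaged 6.83 ± 0.23 in R3, 8.62 ± 0.23 in R2 and 7.64 ± 0.35 in R1, the order of the endothelial markers. It fell 3.47-fold in R3 against R2 (adjusted p = 0.000955) and 1.76-fold lower in R3 than in R1 (adjusted p = 0.0227), the second call being lost without the R3 array of mouse 5 (0.0746) or the R1 array of mouse 2 (0.0775) or 4 (0.0705). Dlk1, a Delta-like protein of precursor cells, averaged 8.30 ± 0.45 in R3, 9.15 ± 0.14 in R2 and 10.52 ± 0.08 in R1. It was 4.68-fold lower in R3 and 2.58-fold lower in R2 than in R1, and its fall of 0.85 in R3 against R2 (adjusted p = 0.0464) was called under 4 of 18 alternatives and lost with the mouse as a fixed replicate block (0.0528).

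Dner, a Delta- and Notch-like receptor of neural cells, had the widest spread between mice. It read 2.96, 3.24 and 6.82 in R3, 9.22, 9.39 and 6.36 in R2, and 7.82, 8.44 and 7.81 in R1 (log2 level, mice 2, 4 and 5). In mouse 5 the R3 array was above the R2 array, opposite to mice 2 and 4. Dner was called lower in R3 than in R1 (limma adjusted p = 0.0356), and that call was lost without the R3 array of mouse 2 (0.116) or 4 (0.12), without any single R1 array (0.0723 to 0.101) and with the mouse as a fixed replicate block (0.0699).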
